A study of Mus musculus with 6 samples.

Results

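The S100, annexin and galectin genes described here are 10 mouse genes chosen by name: S100a4, S100a6, S100a10, S100a11, Anxa1, Anxa2, Anxa5, Anxa6, Lgals1 and Lgals3. They were chosen with earlier results of these data known, so their counts and sizes set beside all genes are descriptions and no test. All of their annotated probe sets on an Affymetrix whole-genome expression array were taken, which gave 18 probe sets, out of 45101 on the array, that carry the symbol of 1 member only. They cover 9 of the 10 members. The only probe set of S100a11 is annotated to 3 genes, so no value is assigned to that member.

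S100 proteins and annexins bind calcium, and many of them act in pairs: an S100 dimer can hold annexins against the inner face of the cell membrane, where they organise actin, vesicle traffic and membrane repair. Galectins are lectins that bind galactose-containing sugars, inside the cell and, after release by a non-classical route, on surface receptors, where they cross-link glycoproteins. In T cells transcripts of these families are known to be abundant after activation and in memory and regulatory cells, and low in naive cells.

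The arrays covered 3 sorted CD4 T cell groups from the spleen and nodes of 1 set of hosts. The ex-iTreg population was EGFP– Thy1.1+, the iTreg population EGFP+ Thy1.1+ and the nTreg population EGFP+ Thy1.1–, EGFP being a reporter of Foxp3, the transcription factor of regulatory T cells, and Thy1.1 a surface allele carried by cells induced in culture. Hosts of all groups were BALB/c Rag1-/- mice, which make no T or B cells of their own and, per the labels' protocol, had colitis; each received WT nTreg cells and 500000 WT iTreg cells, and cells were sorted from spleens and mesenteric lymph nodes of 14 mice and pooled after 125 days. Each population was measured on 2 arrays, labelled as replicate pools 1 and 2. Whether the pools came from separate mice is not stated, so each p-value reflects pool-to-pool spread alone, possibly technical in origin. Age and sex of the animals are not stated either.

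Values are log2 expression as deposited, so a difference of 1 is a 2-fold difference. Array medians were between 5.47 and 5.49. Probe sets were tested when they exceeded 5.48, the median of all values, on at least 2 arrays, and each gene was read from its brightest tested probe set. Of 18 member probe sets 16 were tested, and 9 members passed this filter; the other probe sets, 1 of Anxa1 and 1 of Anxa2, lay between 2.91 and 4.0 on every array. Of 9 T cell identity genes with a probe set of their own, among them Cd3e, Cd4 and Thy1, 9 were above that level in each population. So were 14, 15 and 13 of 18 myeloid markers in ex-iTreg, iTreg and nTreg cells, so this level alone does not settle the label. Summed on the linear scale, the 9 T cell genes read 38601 to 39005, 40603 to 42156 and 39029 to 39679 on arrays of these groups. The 18 myeloid markers together read at most 6767, the 9 neutrophil markers at most 10384 and the 7 B cell markers at most 5155. The label of the populations could not be checked on Foxp3 itself, whose probe set read between 3.99 and 4.29. Poly-A spikes, bacterial RNAs added to the sample before labelling, averaged 9.49 and 9.62 on ex-iTreg arrays, 12.36 and 12.33 on iTreg arrays, and 10.86 and 10.96 on nTreg arrays. The 3′ minus 5′ difference of the Gapdh control was 0.00 and -0.04 on ex-iTreg arrays, 0.38 and 0.51 on iTreg arrays, and 0.15 and 0.15 on nTreg arrays. Their part in the results below was not tested.

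Promoter sequences are shown for 4 members whose expression moved in opposite directions in ex-iTreg cells: S100a4 and S100a6, which fell, and Anxa2 and Lgals3, which rose relative to iTreg cells. Each line gives the 250 bases before the annotated start of the gene, 5′ to 3′ on the gene's own strand, from RefSeq on build GRCm38.p6, a C57BL/6J genome, whereas the hosts were BALB/c. Capitals mark matches, on either strand, to any of 5 motifs. They were TATAAA, known as the TATA box, and TGTGGT, the core that Runx factors bind. Sp and Kruppel-like factors are known to read GGGCGG. The AP-1 motif was written as TGANTCA and the STAT motif as TTCNNNGAA.
S100a4, chr3:90603520-90603769, plus strand: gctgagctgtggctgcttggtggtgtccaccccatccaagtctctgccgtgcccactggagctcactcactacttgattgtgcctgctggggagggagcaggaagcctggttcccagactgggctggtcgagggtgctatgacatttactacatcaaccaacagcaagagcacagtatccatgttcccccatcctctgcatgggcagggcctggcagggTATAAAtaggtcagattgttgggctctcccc
S100a6, chr3:90612644-90612893, plus strand: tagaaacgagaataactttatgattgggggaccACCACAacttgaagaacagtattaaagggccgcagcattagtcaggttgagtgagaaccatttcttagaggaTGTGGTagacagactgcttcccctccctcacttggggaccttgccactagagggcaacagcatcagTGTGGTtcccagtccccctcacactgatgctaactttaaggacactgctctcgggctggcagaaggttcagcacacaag
Anxa2, chr9:69453433-69453682, plus strand: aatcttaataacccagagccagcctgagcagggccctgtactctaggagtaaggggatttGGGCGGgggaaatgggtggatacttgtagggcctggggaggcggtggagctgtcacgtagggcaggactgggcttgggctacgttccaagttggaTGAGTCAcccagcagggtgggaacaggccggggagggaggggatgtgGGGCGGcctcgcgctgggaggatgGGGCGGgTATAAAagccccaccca
Lgals3, chr14:47373610-47373859, plus strand: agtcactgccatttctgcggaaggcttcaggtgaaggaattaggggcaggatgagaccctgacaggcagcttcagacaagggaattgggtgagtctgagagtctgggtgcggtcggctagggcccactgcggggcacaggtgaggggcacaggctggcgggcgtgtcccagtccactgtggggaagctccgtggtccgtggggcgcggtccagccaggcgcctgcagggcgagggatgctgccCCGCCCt

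The S100a4 window held 1 TATAAA, 31 bases before the start, and no other motif. The S100a6 window held TGTGGT 3 times, at 217, 145 and 79 bases before the start. Anxa2 held TATAAA at 17 bases, TGANTCA at 95 bases and GGGCGG at 190, 48 and 24 bases, and Lgals3 held 1 GGGCGG in reverse, at 7 bases. No match overlapped another motif in these 4 windows, and TTCNNNGAA was in 0 of them. Over 32851 promoter windows of the same length, TATAAA was found in 12.4%, TGTGGT in 14%, GGGCGG in 32.7%, TGANTCA in 6.75% and TTCNNNGAA in 7.02%. A promoter was listed for 7 of the 10 members. These matches are descriptions of the letters and say nothing of binding.

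The first comparison asked how the members differ between Thy1.1+ cells without and with the Foxp3 reporter. Lgals3 was 2.73-fold higher in ex-iTreg than in iTreg cells, and Anxa2 and Anxa1 were also higher. S100a4, S100a6, S100a10, Lgals1 and Anxa6 were lower, by 1.27-fold to 1.66-fold, and Anxa5 did not pass the test. Of 9 members, 8 passed limma's test, 3 higher and 5 lower, where 36.6% of 11019 tested genes passed (15.6% higher and 21% lower). In bulk samples such as these, fewer expressing cells and less RNA per cell cannot be told apart.

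Against nTreg cells, ex-iTreg cells differed in the same 8 members, again 3 higher (Lgals3, Anxa1 and Anxa2) and 5 lower, where 37.4% of all tested genes passed (18.4% higher and 19% lower). These comparisons share the ex-iTreg arrays. Between the reporter-positive populations, 6 of 9 members passed in iTreg relative to nTreg cells, 2 higher (Anxa1 and Anxa6) and 4 lower (S100a6, S100a10, Anxa2 and Lgals3), where 29.1% of all tested genes passed (16.4% higher and 12.7% lower). The largest of these 6 differences was 1.39-fold. Only the call of Anxa1 held in all 16 alternative analyses, and the count of called members was 1 with all probe sets tested, 1 without either iTreg array, 2 without nTreg pool 1, 4 without nTreg pool 2 and 3 without either ex-iTreg array.

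**Figure D1:**
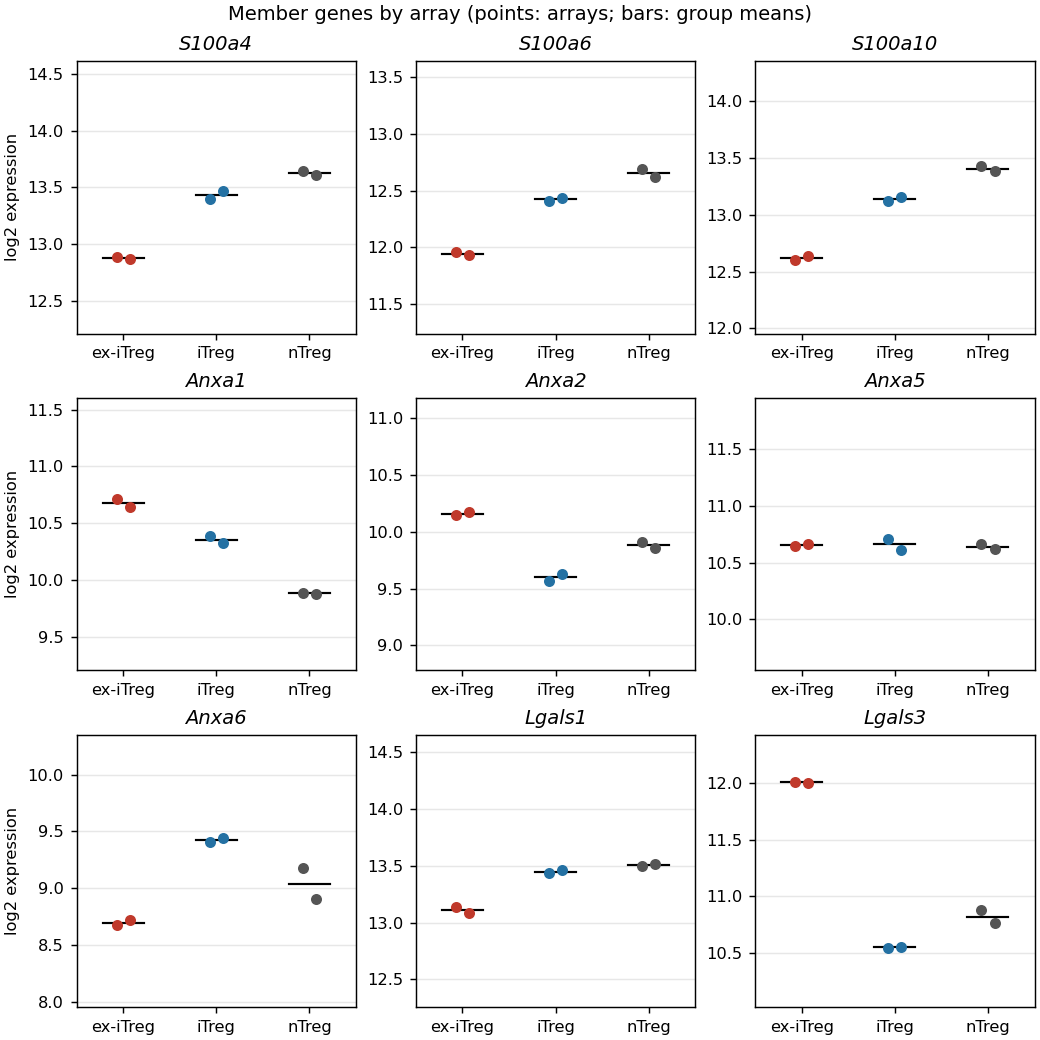
Log2 expression (vertical axis, each panel spanning the same number of log2 units) of 9 members in ex-iTreg, iTreg and nTreg arrays. Points are single arrays and bars group means: S100a4, S100a6, S100a10 and Lgals1 are lowest in ex-iTreg cells, Lgals3, Anxa1 and Anxa2 are highest there, and Anxa5 stays between 10.61 and 10.71.

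The members' median difference was -0.34 in ex-iTreg minus iTreg cells, where that of all tested genes was -0.02. It was -0.34 in ex-iTreg minus nTreg cells, with 0.03 over all genes, and -0.19 in iTreg minus nTreg cells, with 0.04 over all genes. Regardless of direction, the median size of the members' differences was 0.52, 0.71 and 0.27 in these 3 comparisons, and over all genes it was 0.18, 0.19 and 0.16. Since the members were chosen with earlier results known, sizes above those of all genes do not test the families. The 2 arrays of a group lay between 0.01 and 0.27 apart over members and groups, with a median of 0.04. The arrays of the groups compared did not overlap for 8 of 9 members in each comparison; over all tested genes this held for 72.8% in ex-iTreg against iTreg, 71.1% in ex-iTreg against nTreg and 68% in iTreg against nTreg. With each gene read from its brightest probe set, only Lgals3 passed the test with a difference of at least 2-fold. It did so in both comparisons of ex-iTreg cells, and 0 members did so in iTreg minus nTreg cells. Of all tested genes, 3.54% did so in ex-iTreg minus iTreg, 5.83% in ex-iTreg minus nTreg and 2.26% in iTreg minus nTreg cells. A dimmer probe set of S100a10, 1439348_at, also passed, at 2.66-fold lower in ex-iTreg than in nTreg cells.

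The S100 members are small dimeric proteins of a calcium-binding family, with genes on chromosome 3. S100a4, which binds non-muscle myosin and is known for its role in cell motility, read 12.89 and 12.87 on ex-iTreg arrays, 13.40 and 13.47 on iTreg arrays, and 13.64 and 13.61 on nTreg arrays. The ex-iTreg arrays were the lowest, and no group overlapped another. S100a4 fell in ex-iTreg cells, with a difference of -0.56 ± 0.06 (SE) from iTreg and of -0.74 ± 0.06 from nTreg cells, 1.67-fold (adjusted p = 0.0013 and 0.000303, limma). In iTreg minus nTreg cells the difference was -0.19 ± 0.06 (adjusted p = 0.0712, limma), with a 95% confidence interval from -0.34 to -0.03. It did not pass here, but did in 3 of 16 alternative analyses. These used quantile normalization, an intensity trend in eBayes or the mean of a gene's probe sets.

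S100a6, or calcyclin, read 11.96 and 11.93 on ex-iTreg arrays, 12.41 and 12.44 on iTreg arrays, and 12.69 and 12.62 on nTreg arrays. The order of the populations was that of S100a4, again without overlap. Its difference was -0.48 ± 0.06 in ex-iTreg minus iTreg and -0.71 ± 0.06 in ex-iTreg minus nTreg cells, a fall in both (adjusted p = 0.00223 and 0.000361, limma). The step in iTreg minus nTreg cells was -0.23 ± 0.06 (adjusted p = 0.038, limma), and this call was lost whichever of the 6 arrays was left out.

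S100a10, or p11, does not bind calcium and pairs with annexin A2 at the membrane. Its brightest probe set read 12.60 and 12.64 on ex-iTreg arrays, 13.12 and 13.16 on iTreg arrays, and 13.43 and 13.39 on nTreg arrays. The 3 populations were apart and in the order of S100a4 and S100a6. S100a10 fell in ex-iTreg cells, by a difference of -0.52 ± 0.06 from iTreg and of -0.79 ± 0.06 from nTreg cells, 1.73-fold (adjusted p = 0.00157 and 0.00022, limma). Its fall in iTreg relative to nTreg cells was -0.27 ± 0.06 (adjusted p = 0.0216, limma) and passed, but not when nTreg pool 1 or either iTreg array was left out.

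S100a10 was read by 3 tested probe sets, and all 3 fell in ex-iTreg cells. The dimmest of them, 1439348_at, read 8.01 and 8.04 on ex-iTreg arrays, 8.98 and 9.06 on iTreg arrays, and 9.54 and 9.32 on nTreg arrays. It differed by -0.9975 ± 0.09 in ex-iTreg minus iTreg and by -1.41 ± 0.09 in ex-iTreg minus nTreg cells, 2.66-fold (adjusted p = 0.000523 and 8.51e-05, limma). The size of the S100a10 difference therefore depends on the probe set, from 1.73-fold to 2.66-fold in ex-iTreg against nTreg cells, while its direction does not. The remaining one, 1456642_x_at, differed by -0.63 ± 0.06 in ex-iTreg minus iTreg, by -0.81 ± 0.06 in ex-iTreg minus nTreg and by -0.18 ± 0.06 in iTreg minus nTreg cells, the last not past the test (adjusted p = 0.0808, limma). The highest value on an array was between 14.48 and 14.54, so the brightest S100 probe sets read near the top of the scale, and the part of this in their sizes was not tested.

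The probe set annotated to S100a11, Gm12854 and S100a11-ps together read 11.67 and 11.53 on ex-iTreg arrays, 11.98 and 11.91 on iTreg arrays, and 12.08 and 11.999 on nTreg arrays. It differed by -0.34 ± 0.08 in ex-iTreg minus iTreg cells and by -0.44 ± 0.08 in ex-iTreg minus nTreg cells (adjusted p = 0.0164 and 0.00634, limma). The array does not tell which of the 3 genes it read, so it was counted with no member.

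In the gene order of the RefSeq table, S100a4 and S100a6 are separated by S100a5 alone, and S100a11 is next to S100a10. S100a3, S100a2, S100a5 and S100a7a, which complete the nearest neighbours of S100a4 and S100a6 on chromosome 3, were not tested. S100a8, a subunit of the neutrophil protein calprotectin, lies beyond S100a7a and read 11.03 and 10.96 on ex-iTreg arrays, 11.42 and 11.57 on iTreg arrays, and 11.17 and 11.33 on nTreg arrays. Unlike S100a4 and S100a6, its highest arrays were those of iTreg cells. It fell in ex-iTreg relative to iTreg cells (-0.50 ± 0.09, adjusted p = 0.00607, limma), and its difference in ex-iTreg minus nTreg cells was -0.25 ± 0.09 (adjusted p = 0.0634, limma).

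**Figure D2:**
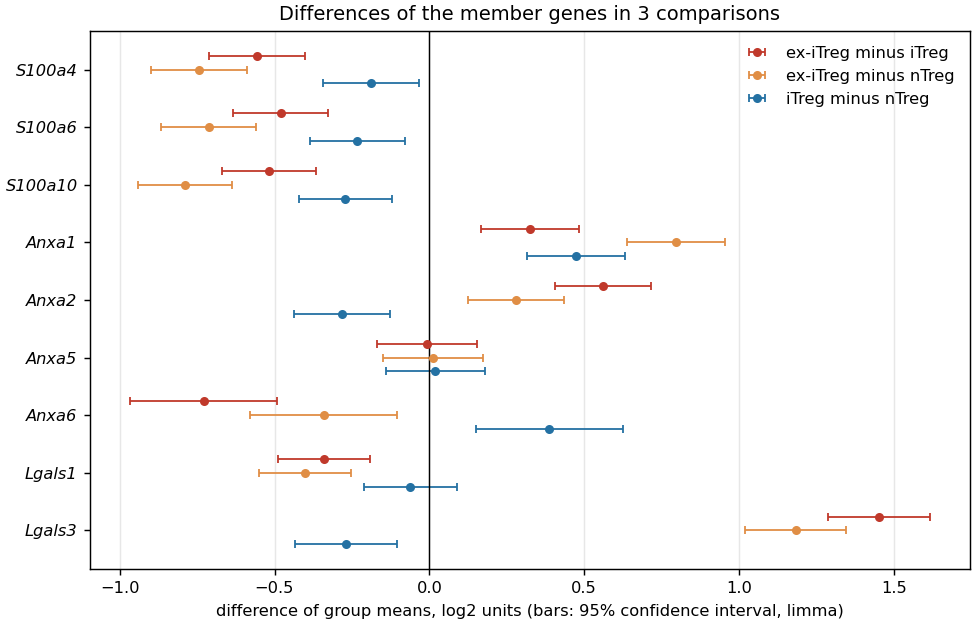
Differences of group means in log2 units (horizontal axis) for 9 members, with 95% confidence intervals from limma; points right of 0 are higher in the population named first. The 3 S100 genes lie left of 0 in all comparisons, Lgals3 reaches 1.45 in ex-iTreg minus iTreg cells, and the intervals of Anxa5 include 0 in all of them.

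Annexins bind acidic phospholipids when calcium rises. Of their genes Anxa1 lies on chromosome 19, Anxa2 on 9, Anxa5 on 3 and Anxa6 on 11. Anxa1 encodes annexin A1, a ligand of formyl peptide receptors known for damping inflammation, and read 10.71 and 10.64 on ex-iTreg arrays, 10.39 and 10.32 on iTreg arrays, and 9.89 and 9.87 on nTreg arrays. Its order was the reverse of the S100 genes, with ex-iTreg arrays highest and no overlap. It was higher in ex-iTreg than in nTreg cells by 0.80 ± 0.07, a 1.74-fold difference, and higher in iTreg than in nTreg cells by 0.47 ± 0.07 (adjusted p = 0.000253 and 0.00373, limma). The step between ex-iTreg and iTreg cells, 0.32 ± 0.07 (adjusted p = 0.0104, limma), was not past the test without iTreg pool 2 (adjusted p = 0.0608) or without ex-iTreg pool 1 (adjusted p = 0.0704).

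Anxa2, the annexin that pairs with S100a10, read 10.15 and 10.17 on ex-iTreg arrays, 9.57 and 9.63 on iTreg arrays, and 9.91 and 9.85 on nTreg arrays. Here the iTreg arrays were the lowest and the ex-iTreg arrays the highest. Anxa2 rose in ex-iTreg relative to iTreg cells by 0.56 ± 0.06, a 1.47-fold difference, while S100a10 fell 1.43-fold in the same comparison. Anxa2 fell in iTreg relative to nTreg cells, by a difference of -0.28 ± 0.06 (adjusted p = 0.0208, limma), again not when nTreg pool 1 or either iTreg array was left out. In ex-iTreg relative to nTreg cells it rose by 0.28 ± 0.06 (adjusted p = 0.0164, limma), but this call was lost without nTreg pool 2 or either ex-iTreg array.

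A dimmer probe set of Anxa2, 1437692_x_at, read 5.83 and 5.72 on ex-iTreg arrays, 5.53 and 5.52 on iTreg arrays, and 5.86 and 5.91 on nTreg arrays, close to the filter level. It also had its lowest values on iTreg arrays, with 0.25 ± 0.07 in ex-iTreg minus iTreg and -0.36 ± 0.07 in iTreg minus nTreg cells (adjusted p = 0.0297 and 0.0118, limma). In ex-iTreg minus nTreg cells it differed by -0.11 ± 0.07 (adjusted p = 0.273, limma), so the rise of Anxa2 relative to nTreg cells rests on 1 of its 2 tested probe sets.

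Anxa5, the phosphatidylserine-binding annexin used to stain dying cells, read 10.64 and 10.66 on ex-iTreg arrays, 10.71 and 10.61 on iTreg arrays, and 10.66 and 10.62 on nTreg arrays. All 3 groups overlapped. The 95% confidence interval of its difference was -0.17 to 0.15 in ex-iTreg minus iTreg, -0.15 to 0.17 in ex-iTreg minus nTreg and -0.14 to 0.18 in iTreg minus nTreg cells.

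Anxa6, the largest annexin, which recruits the Ras GTPase-activating protein Rasa1 to the membrane, was highest in iTreg cells on all 4 of its probe sets. The brightest probe set read 8.67 and 8.72 on ex-iTreg arrays, 9.41 and 9.44 on iTreg arrays, and 9.17 and 8.90 on nTreg arrays. Its nTreg arrays, 0.27 apart, were the widest pair of any member. Anxa6 fell in ex-iTreg relative to iTreg cells, with -0.73 ± 0.10, a 1.66-fold difference (adjusted p = 0.00236, limma). The remaining probe sets gave -0.56, -0.75 and -0.49 (adjusted p = 0.0021, 0.000538 and 0.0219, limma).

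In iTreg relative to nTreg cells Anxa6 rose by 0.39 ± 0.10 (adjusted p = 0.0294, limma), and leaving out any array other than nTreg pool 1 ended this call. Its other probe sets rose by 0.38, 0.74 and 0.51 (adjusted p = 0.012, 0.000888 and 0.0239, limma). The difference in ex-iTreg minus nTreg cells, -0.34 ± 0.10 (adjusted p = 0.0363, limma), passed on the brightest probe set alone, and leaving out any array other than nTreg pool 2 ended it. On the remaining ones it was -0.18, -0.01 and 0.02 (adjusted p = 0.105, 0.928 and 0.904, limma).

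**Figure D3:**
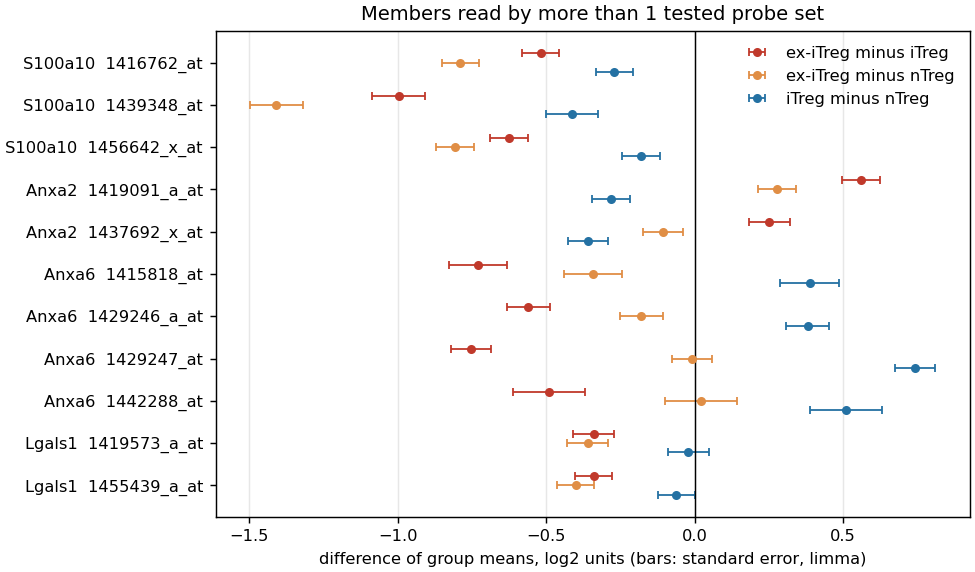
Differences of group means in log2 units (horizontal axis) with standard errors from limma, for the 11 tested probe sets of the 4 members read by more than 1. The 3 probe sets of S100a10 agree in sign but range from -0.79 to -1.41 in ex-iTreg minus nTreg cells, while those of Anxa2 and Anxa6 straddle 0 in that comparison.

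The galectin members, Lgals1 on chromosome 15 and Lgals3 on chromosome 14, moved in opposite directions in ex-iTreg cells. Lgals1, or galectin-1, a dimeric lectin that regulatory T cells make and that can trigger death of activated T cells, read 13.14 and 13.09 on ex-iTreg arrays, 13.44 and 13.46 on iTreg arrays, and 13.50 and 13.52 on nTreg arrays. The ex-iTreg arrays lay below all others, and the iTreg and nTreg arrays were next to each other. Lgals1 fell in ex-iTreg cells, with -0.34 ± 0.06 from iTreg and -0.40 ± 0.06 from nTreg cells (adjusted p = 0.00708 and 0.00346, limma). The first of these was just short of the test without ex-iTreg pool 2 (adjusted p = 0.0541, limma). In iTreg minus nTreg cells the difference was -0.06 ± 0.06 (adjusted p = 0.496, limma), with a 95% confidence interval from -0.21 to 0.09. The second probe set of Lgals1 gave -0.34, -0.36 and -0.02 in ex-iTreg minus iTreg, ex-iTreg minus nTreg and iTreg minus nTreg cells.

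Lgals3, or galectin-3, which joins its sugar-binding domain to a flexible tail that lets it oligomerise and is known to bind T cell receptor glycans and the inhibitory receptor Lag3, read 12.01 and 11.997 on ex-iTreg arrays, 10.55 and 10.56 on iTreg arrays, and 10.88 and 10.76 on nTreg arrays. The ex-iTreg arrays stood more than 1 log2 unit above every other array. Lgals3 rose in ex-iTreg relative to iTreg cells by 1.45 ± 0.07, a 2.73-fold difference, and relative to nTreg cells by 1.18 ± 0.07, a 2.27-fold difference (adjusted p = 4.65e-05 and 5.81e-05, limma). Over 16 alternative analyses the first of these stayed between 1.44 and 1.46 and the second between 1.12 and 1.24. Lgals3 fell in iTreg relative to nTreg cells, by a difference of -0.27 ± 0.07 (adjusted p = 0.0293, limma), and leaving out any array other than nTreg pool 2 ended this call.

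Genes whose 6 array values, each centred on its own mean, lay closest to those of Lgals3 among 10616 other genes were Rnf19a, Itga7 and Cdk5r1, at Euclidean distances of 0.16, 0.17 and 0.18 log2 units. Rnf19a, a ubiquitin ligase, read 11.85 and 11.89 on ex-iTreg arrays, 10.29 and 10.28 on iTreg arrays, and 10.60 and 10.57 on nTreg arrays. Itga7, an integrin chain, differed by 1.47 in ex-iTreg minus iTreg cells and Cdk5r1, an activator of the kinase Cdk5, by 1.46. Closest to S100a10 were Pisd-ps3, Arel1 and Ptger2, at distances of 0.05, 0.07 and 0.07. Ptger2, a prostaglandin E2 receptor, read 7.07 and 7.13 on ex-iTreg arrays, 7.56 and 7.66 on iTreg arrays, and 7.96 and 7.89 on nTreg arrays, a difference of -0.82 in ex-iTreg minus nTreg cells. These distances describe 6 arrays in 3 groups.

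Of 28 other genes of the 3 families, 24 had a probe set of their own and 11 were tested. Relative to iTreg cells, 5 of the 11 fell in ex-iTreg cells and 0 rose, with a median of -0.12. Relative to nTreg cells, 3 fell and 2 rose, with a median of -0.05, and in iTreg relative to nTreg cells 2 fell and 3 rose, with a median of 0.12. So 5 of 11 passed in each comparison, where 36.6%, 37.4% and 29.1% of all tested genes passed, with medians of -0.02, 0.03 and 0.04.

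Anxa4, an epithelial annexin, read 7.11 and 7.11 on ex-iTreg arrays, 8.38 and 8.14 on iTreg arrays, and 8.94 and 8.91 on nTreg arrays. It had the order of the S100 members, with wider steps, with -1.15 ± 0.09 in ex-iTreg minus iTreg, -1.81 ± 0.09 in ex-iTreg minus nTreg and -0.67 ± 0.09 in iTreg minus nTreg cells (adjusted p = 0.000342, 3.27e-05 and 0.0035, limma). Its second probe set differed by -1.004, -1.82 and -0.82 in the same order. Lgalsl, a galectin-related protein, read 8.19 and 8.30 on ex-iTreg arrays, 8.10 and 8.06 on iTreg arrays, and 9.13 and 9.18 on nTreg arrays. Its nTreg arrays were higher than all others, with -0.91 ± 0.07 in ex-iTreg minus nTreg and -1.07 ± 0.07 in iTreg minus nTreg cells (adjusted p = 0.000192 and 0.000284, limma). The calls of Anxa4 and Lgalsl named here held in all 16 alternative analyses. The second probe set of Lgalsl differed by -0.88 in ex-iTreg minus nTreg and by -1.12 in iTreg minus nTreg cells. In ex-iTreg minus iTreg cells it passed at 0.23 (adjusted p = 0.0432, limma), where the brightest gave 0.17 (adjusted p = 0.111, limma).

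Smaller differences were found for other relatives. Lgals8 fell in ex-iTreg cells, with -0.35 ± 0.06 from iTreg and -0.31 ± 0.06 from nTreg cells (adjusted p = 0.007 and 0.0108, limma), the call against nTreg ending without either ex-iTreg array, and its second probe set differed by -0.18 and -0.13 and did not pass (adjusted p = 0.119 and 0.221, limma). Lgals9, a ligand of the receptor Tim-3, was 0.37 ± 0.09 higher in iTreg than in nTreg cells (adjusted p = 0.0305, limma), a call that held in 9 of 16 alternatives and ended on leaving out any array other than nTreg pool 1. In ex-iTreg minus iTreg cells Lgals9 differed by -0.41 ± 0.09 (adjusted p = 0.0158, limma), a call that held in 13 of 16 alternatives. S100a13, which takes part in non-classical secretion, was 0.24 ± 0.06 higher in ex-iTreg than in nTreg cells (adjusted p = 0.0263, limma), which did not pass when any 1 of the ex-iTreg or nTreg arrays was left out.

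S100a9, the partner of S100a8 in calprotectin, read 11.43 and 11.40 on ex-iTreg arrays, 11.80 and 11.98 on iTreg arrays, and 11.61 and 11.57 on nTreg arrays. Like S100a8 it was highest on iTreg arrays. It fell in ex-iTreg relative to iTreg cells, with -0.47 ± 0.08 (adjusted p = 0.00502, limma) and was 0.30 ± 0.08 higher in iTreg than in nTreg cells (adjusted p = 0.0316, limma), the second of which ended on leaving out any array other than iTreg pool 1.

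Both S100a8 and S100a9 are also neutrophil markers, and the other markers moved with them. Of 7 tested neutrophil markers, these 2 included, 7 fell in ex-iTreg relative to iTreg cells, and 6 rose in iTreg relative to nTreg cells. Relative to nTreg cells, 3 of them (Ngp, Ltf and Lcn2) fell in ex-iTreg cells and 0 rose. The summed linear level of the 9 neutrophil markers with a probe set was 6575 to 6651 on ex-iTreg arrays, 9664 to 10384 on iTreg arrays and 8012 to 8135 on nTreg arrays, with Elane and Cxcr2 below the filter level in every population. Of 15 tested myeloid markers, 14 fell in ex-iTreg relative to iTreg cells, 14 rose in iTreg relative to nTreg cells and 9 rose in ex-iTreg relative to nTreg cells. The summed linear level of 18 myeloid markers was 4219 to 4290 on ex-iTreg arrays, 6662 to 6767 on iTreg arrays and 3523 to 3617 on nTreg arrays, with Itgam, Vsig4 and Cx3cr1 below the filter level in every population. Their part in the members' differences was not tested.

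Macrophages and neutrophils also express several members. In ex-iTreg relative to nTreg cells the myeloid sum was higher and the neutrophil sum was lower. Among the members, Lgals3, Anxa1 and Anxa2 were higher there, and S100a4, S100a6, S100a10, Lgals1 and Anxa6 were lower. In ex-iTreg relative to iTreg cells both sums were lower, and the same members were higher and lower as against nTreg cells. In iTreg relative to nTreg cells both sums were higher. Anxa1 and Anxa6 were higher in that comparison, and S100a6, S100a10, Anxa2 and Lgals3 were lower. The part of macrophages and neutrophils in these differences was not tested. The marker lists of other cell types moved as well, and so did the T cell identity list. Of its 9 genes, 4 were higher and 4 lower in ex-iTreg relative to nTreg cells, where 37.4% of all tested genes passed. In ex-iTreg relative to iTreg cells 1 was higher and 3 were lower, where 36.6% of all passed. In iTreg relative to nTreg cells 2 were higher and 0 lower, where 29.1% of all passed. Of 4 tested B cell markers 3 fell in ex-iTreg cells in both of their comparisons. The summed linear level of 7 B cell markers was 2325 to 2410 on ex-iTreg arrays and 4789 to 4852 on iTreg arrays. It was 5141 to 5155 on nTreg arrays, with Cd79a, Blk and Pax5 below the filter level in every population. The part of B cell transcripts in the members' differences was not tested. Of 6 tested markers of CD8 T and NK cells, Klrd1, Klrk1 and Eomes were higher in ex-iTreg cells in both comparisons, and Cd8b1 was lower in both. Prf1 was lower in ex-iTreg than in iTreg cells but higher than in nTreg cells. Cd8a was higher in ex-iTreg than in iTreg cells and did not pass against nTreg cells. The summed linear level of the CD8 T and NK list was 1065 to 1118 on ex-iTreg arrays, 445 to 466 on iTreg arrays and 439 to 471 on nTreg arrays, with Ncr1 below the filter level in every population. Of 8 stromal and endothelial markers 2 were tested, and Col1a1, Col1a2, Col3a1, Pdgfrb and Cdh5 lay below the filter level in every population.

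Proteins that bind these families were described from a list of 28 genes, of which 23 were tested. Of the 23, 4 rose and 7 fell in ex-iTreg relative to iTreg cells, with a median of -0.10. Against nTreg cells, 6 rose and 7 fell, with a median of 0.05, and in iTreg relative to nTreg cells 5 rose and 4 fell, with a median of 0.01. Over all tested genes 36.6%, 37.4% and 29.1% passed in these comparisons, with medians of -0.02, 0.03 and 0.04.

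The 4 partners that rose in ex-iTreg relative to iTreg cells were Cacybp, Itgb1, Cd44 and Emb. The 7 that fell were Vim, Ager, Tlr4, Cd7, Cd2, Lag3 and Bsg. The calls of Itgb1, Cd44, Emb, Cd2 and Lag3 held in all 16 alternative analyses. That of Cacybp held in 10 of 16, those of Vim and Bsg in 11, Ager in 12 and Cd7 in 13, and Tlr4 in 12 of 15. Tlr4 was dim, with means of 4.65, 5.48 and 5.33 in ex-iTreg, iTreg and nTreg cells, none above the filter level. Emb, or embigin, a basigin relative, read 12.58 on both ex-iTreg arrays, 11.59 and 11.55 on iTreg arrays, and 11.87 and 11.90 on nTreg arrays, the same order as Lgals3. It rose in ex-iTreg cells by 1.01 ± 0.06 relative to iTreg and by 0.69 ± 0.06 relative to nTreg cells (adjusted p = 0.000128 and 0.000352, limma). Itgb1, the integrin beta-1 chain, a glycoprotein that galectins bind, rose by 0.80 ± 0.08 in ex-iTreg relative to iTreg cells (adjusted p = 0.000719, limma), and so did Cd44, a hyaluronan receptor of activated T cells, by 0.63 ± 0.06 (adjusted p = 0.000702, limma). Cd44 read 11.57 on both ex-iTreg arrays, 10.94 on both iTreg arrays, and 11.42 and 11.37 on nTreg arrays. In iTreg minus nTreg cells it differed by -0.45 ± 0.06 (adjusted p = 0.00352, limma). Its difference in ex-iTreg minus nTreg cells was 0.18 ± 0.06 (adjusted p = 0.0625, limma). The other tested probe sets passed with the same sign in ex-iTreg minus iTreg cells, at 0.82 and 1.198 for Emb, 0.50 and 0.78 for Itgb1, and 0.32 and 0.59 for Cd44. Those of Cd44 differed by 0.00085 and -0.13 in ex-iTreg minus nTreg cells (adjusted p = 0.994 and 0.226, limma).

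Cd2, an adhesion receptor of T cells, was among the partners that fell and is named here after its values were seen. Its mean was 11.94 in ex-iTreg, 12.41 in iTreg and 12.59 in nTreg cells. It differed by -0.47 ± 0.07 in ex-iTreg minus iTreg and by -0.65 ± 0.07 in ex-iTreg minus nTreg cells (adjusted p = 0.00272 and 0.000612, limma).

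Lag3, the inhibitory receptor that galectin-3 binds, went the other way from Lgals3. It read 6.72 and 6.70 on ex-iTreg arrays, 7.59 and 7.42 on iTreg arrays, and 7.47 and 7.52 on nTreg arrays. Lag3 fell in ex-iTreg cells, with -0.80 ± 0.08 from iTreg and -0.79 ± 0.08 from nTreg cells (adjusted p = 0.000758 and 0.000586, limma), and differed by 0.01 in iTreg minus nTreg cells (adjusted p = 0.94, limma).

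Lgals3bp, a secreted glycoprotein that binds galectin-3, read 9.09 on both ex-iTreg arrays, 8.97 and 9.01 on iTreg arrays, and 8.30 on both nTreg arrays, so the nTreg arrays were lowest. It was higher by 0.79 ± 0.06 in ex-iTreg and by 0.69 ± 0.06 in iTreg cells, each relative to nTreg cells (adjusted p = 0.000196 and 0.000806, limma). Bcl2, a survival protein reported to bind galectin-3, was higher by 0.72 ± 0.07 and 0.60 ± 0.07 in the same comparisons on its brightest probe set (adjusted p = 0.000567 and 0.00221, limma). The size depended on the probe set. The other 4 gave 1.40, 1.84, 0.67 and 1.81 in ex-iTreg minus nTreg and 0.62, 0.94, 0.94 and 0.81 in iTreg minus nTreg cells, all past the test. In ex-iTreg minus iTreg cells the brightest gave 0.11 (adjusted p = 0.267, limma), and the other 4, in the same order, gave 0.77, 0.90, -0.27 and 0.996, all past the test, so the probe sets disagree in direction there.

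Cd7, described in human T cells as a galectin-1 receptor, read 8.23 on both ex-iTreg arrays, 8.57 and 8.50 on iTreg arrays, and 7.99 and 7.91 on nTreg arrays. The iTreg arrays were the highest and no group overlapped another. It was 0.59 ± 0.07 higher in iTreg than in nTreg cells (adjusted p = 0.00196, limma). In ex-iTreg cells it differed by -0.31 ± 0.07 from iTreg and by 0.28 ± 0.07 from nTreg cells (adjusted p = 0.0133 and 0.0196, limma). The call against iTreg ended without iTreg pool 1 or either ex-iTreg array, and that against nTreg without nTreg pool 2 or either ex-iTreg array.

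The third list held 14 enzymes that trim, branch or extend the glycans galectins recognise, all of them tested. Of these, 2 rose and 2 fell in ex-iTreg relative to iTreg cells, with a median of 0.04. Against nTreg cells, 2 rose and 6 fell, with a median of -0.08, and in iTreg relative to nTreg cells 3 rose and 5 fell, with a median of -0.07. The share of all tested genes that passed was 36.6%, 37.4% and 29.1%, with medians of -0.02, 0.03 and 0.04. So 4 of 14 enzymes in ex-iTreg against iTreg cells is a smaller share than over all genes. In each of the other comparisons, 8 of 14 is a larger one.

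Mgat1, which starts the synthesis of complex N-glycans, was highest in iTreg cells. It read 7.60 and 7.59 on ex-iTreg arrays, 8.55 on both iTreg arrays, and 7.92 and 7.85 on nTreg arrays. Mgat1 fell in ex-iTreg relative to iTreg cells, with -0.95 ± 0.06, and was 0.66 ± 0.06 higher in iTreg than in nTreg cells (adjusted p = 0.00017 and 0.00104, limma). Mgat2, the enzyme that follows it, was lowest in iTreg cells, with 9.75 and 9.71 on ex-iTreg arrays, 9.22 and 9.20 on iTreg arrays, and 9.59 and 9.45 on nTreg arrays. It rose in ex-iTreg relative to iTreg cells by 0.52 ± 0.07 (adjusted p = 0.00281, limma). Man1a and Man2a1, mannosidases that act around these steps, differed by -0.52 ± 0.08 and 0.29 ± 0.07 in ex-iTreg minus iTreg cells (adjusted p = 0.00466 and 0.0162, limma), the call of Man2a1 ending without iTreg pool 1 or either ex-iTreg array. The second probe set of Man1a gave -0.31 (adjusted p = 0.0171, limma).

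Mgat5, which makes a branch of high galectin affinity, read 8.63 on both ex-iTreg arrays, 8.59 and 8.64 on iTreg arrays, and 9.24 and 9.10 on nTreg arrays. B3gnt2, which extends lactosamine chains, read 10.57 and 10.52 on ex-iTreg arrays, 10.46 and 10.37 on iTreg arrays, and 11.02 and 11.04 on nTreg arrays. In both genes the nTreg arrays were above all others. Relative to nTreg cells Mgat5 differed by -0.54 ± 0.07 in ex-iTreg and by -0.56 ± 0.07 in iTreg cells, and B3gnt2 by -0.48 ± 0.07 and -0.61 ± 0.07 (adjusted p at most 0.00297, limma). The second probe set gave -0.80 and -0.45 for Mgat5 and -0.80 and -0.72 for B3gnt2, all past the test. That of Mgat5 also fell in ex-iTreg relative to iTreg cells (-0.35, adjusted p = 0.0166, limma), where the brightest gave 0.02 (adjusted p = 0.886, limma).

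Mgat4a, another branching enzyme, was lowest in nTreg cells. It was higher by 0.78 ± 0.10 in ex-iTreg and by 0.70 ± 0.10 in iTreg relative to nTreg cells (adjusted p = 0.0014 and 0.00365, limma), but its second probe set differed by 0.28 and 0.07 and did not pass (adjusted p = 0.113 and 0.677, limma). B4galt1, which adds galactose to these chains and is named after its values were seen, was also lowest in nTreg cells, with 0.45 ± 0.07 in ex-iTreg minus nTreg and 0.38 ± 0.07 in iTreg minus nTreg cells (adjusted p = 0.00331 and 0.0101, limma). The second of these ended without iTreg pool 2.

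Gcnt1, which starts core 2 branches on O-glycans and was singled out after its values were seen, had the widest gap of the list. Its mean was 6.21 in ex-iTreg, 5.79 in iTreg and 7.06 in nTreg cells. It differed by -0.85 ± 0.19 in ex-iTreg minus nTreg and by -1.27 ± 0.19 in iTreg minus nTreg cells (adjusted p = 0.0144 and 0.0048, limma), the first not past the test without either ex-iTreg array. In ex-iTreg minus iTreg cells it differed by 0.42 ± 0.19 (adjusted p = 0.129, limma).

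**Figure D4:**
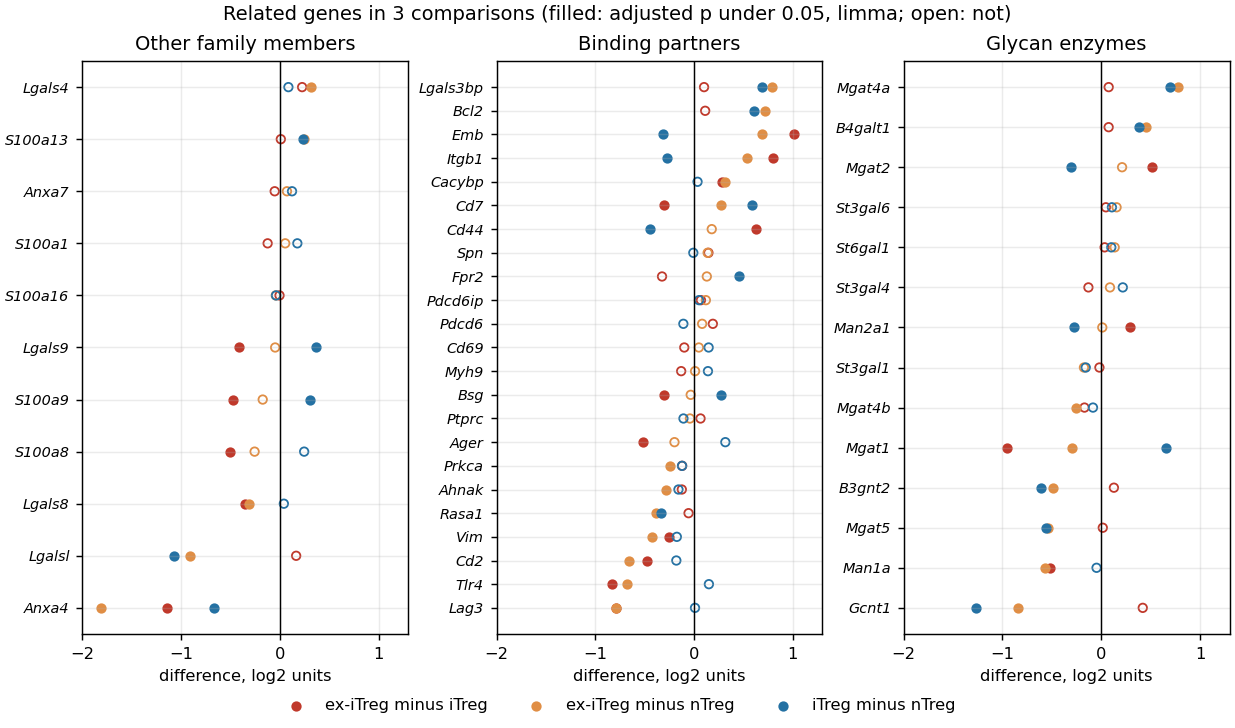
Differences of group means in log2 units (horizontal axis) of 11 other family genes, 23 binding partners and 14 glycan enzymes; filled points passed limma's test and open points did not. Anxa4 is the farthest left at -1.81 in ex-iTreg minus nTreg cells, and Emb the farthest right at 1.01 in ex-iTreg minus iTreg cells.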

How the data were processed

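RNA of 6 sorted T cell pools was measured on Affymetrix Mouse430_2 arrays. The deposited table holds log2 expression per probe set, which the authors computed by RMA according to the submitters' processing notes, with no version given. RMA equalises the distribution of values between arrays, so a shift shared by most genes would not be seen.

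Probes were named from GEO's annotation of the array, in which 34945 of 45101 probe sets carry a single symbol. Gene order and promoters came from RefSeq. After removing 64 array controls, 23484 probe sets above 5.48 on at least 2 arrays were tested with limma 3.58.1 under R 4.3.3, using lmFit and eBayes with 1 mean per group (residual degrees of freedom 3, prior 3.37). Benjamini-Hochberg adjustment ran over all 23484 of them, at a threshold of 0.05. An exact two-sided test of 2 arrays against 2 cannot go below p = 0.333, so every call rests on the spread limma pools over probe sets.

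The named genes were the 10 members, up to 4 called genes of each list and comparison by the size of t, the 3 genes nearest in pattern to each of the 2 members with the largest F, and the gene neighbours of S100 members. Members and lists were chosen with earlier results of these data known. Alternatives changed the filter, scaling, variance model, probe set rule, samples fitted, pool block and call rule, and left out each array.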

Additional observations from a re-analysis of the deposited data

How the results depend on the processing

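In iTreg minus nTreg cells, where 6 members passed limma's test, 1 passed with no filter on dim probe sets, 3 with only the 2 groups compared in the fit, 0 with a difference of at least 2-fold also asked for, and 1 to 4 when single arrays were left out. Asking for at least 2-fold left 1 member in ex-iTreg minus iTreg and 1 in ex-iTreg minus nTreg cells, Lgals3 in both; leaving out single arrays left 7 to 8 and 6 to 7 of the 8. These member counts read each gene from its brightest probe set. The iTreg minus nTreg count was 7 with quantile normalization, with an intensity trend in eBayes, and with the mean of a gene's probe sets. In ex-iTreg minus nTreg cells 6 members passed with no filter on dim probe sets, and 6 with that mean. With the mean of its probe sets, S100a10 also passed at 2-fold in ex-iTreg minus nTreg cells, with a difference of -1.002. Over all genes, the probe sets past the test and at least 2-fold numbered 859 in ex-iTreg minus iTreg, 1283 in ex-iTreg minus nTreg and 603 in iTreg minus nTreg cells, against 8694, 8558 and 6826 on the test alone. Leaving out single arrays gave 4971 to 9104, 5243 to 7928 and 3420 to 5380. The only sign changes were those of Anxa5 when single arrays were left out (-0.057 to 0.042, -0.0065 to 0.031 and -0.030 to 0.069 in the same 3 comparisons), where it never passed. With the pool number as a replicate block, 8, 7 and 5 members passed. Deviations of same-numbered pools correlated over probe sets at -0.04, -0.09 and -0.007. With a single pool difference per group, these values cannot show whether same-numbered pools came from the same mice. The number of arrays limits the precision, and the most abundant members lie near the top of the intensity scale. The cause of the lost calls was not tested.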
